A study of Mus musculus with 2 samples.

Results

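Genes encoding heart-type and ubiquitous isoforms of 3 cytochrome c oxidase subunits and of the creatine kinases were followed across the cell types of the mouse heart at E12.5, in midgestation. They were matched by symbol and made up 9 of the 31053 genes in the deposited gene tables. The 5 heart-type genes were Cox6a2, Cox7a1, Cox8b, Ckm and Ckmt2, and the 4 ubiquitous ones were Cox6a1, Cox7a2, Cox8a and Ckb. These genes had been chosen because earlier results from the same data showed heart-type isoforms in cardiomyocytes, so the levels below are a description of that choice and carry no test.

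The mutant library came from Tbx18-Cre; Prmt1 fl/fl;YFP/+ hearts and the control library from Tbx18-Cre; YFP/+ hearts. Both therefore carried the Cre transgene, driven from Tbx18, a gene of the epicardium, the cell layer covering the heart, together with a YFP allele, and the mutant alone carried floxed Prmt1, which encodes an arginine methyltransferase. Tbx18 expression has also been described in part of the ventricular muscle, and where the Cre had acted was not measured here. Hearts were dissociated with TrypLE and profiled on the 10x Chromium droplet platform, and the number of embryos in a library is not given in the sources used here. There was 1 library per genotype. Differences between genotypes could therefore not be tested, and the 95% intervals below cover counting error and leave out the variation between embryos.

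Cytochrome c oxidase is the terminal complex of the mitochondrial respiratory chain, which passes electrons from cytochrome c to oxygen. Its catalytic core is encoded in mitochondrial DNA and is surrounded by nuclear-encoded subunits, of which COX6A, COX7A and COX8 exist as a form found in most tissues and a form found in striated muscle. Creatine kinases move phosphate between ATP and creatine. CKM and CKB are the muscle and brain forms in the cytosol, and CKMT2 is the form of striated muscle mitochondria. In rodents the heart-type forms are known to gain ground over the ubiquitous ones as the heart matures.

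By GENCODE M21 (GRCm38), 4 of the 5 heart-type genes lay on chromosome 7. Ckm spanned chr7:19404776-19422841 on the plus strand, Cox7a1 chr7:30184144-30186078 on the plus strand, Cox6a2 chr7:128205435-128206387 on the minus strand and Cox8b chr7:140898945-140900446 on the minus strand. Ckmt2 was at chr13:91853387-91876885 on the minus strand. The ubiquitous genes were on 4 other chromosomes, all on the minus strand, with Ckb at chr12:111669361-111672338, Cox6a1 at chr5:115345642-115348981, Cox7a2 at chr9:79755361-79759878 and Cox8a at chr19:7215153-7217616. The coding sequences of the isoforms within a pair were 65.3% identical for Cox6a, 67.3% for Cox7a, 56.4% for Cox8 and 76.5% for Ckm and Ckb. Ckb had 3 processed copies (Gm12892, Ckb-ps1 and Ckb-ps2) and Cox6a1 had 1 (AC148174.2) that the gene tables did not list, so reads shared with such a copy could not be assessed and the levels of these genes are to that extent uncertain. Cox6a2 lay wholly inside Itgad, a gene of the opposite strand, which had 0 UMIs in mutant and 1 UMI in control ventricular cells, and the antisense gene A930016O22Rik, which overlaps Ckm, had 4 and 2.

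The isoforms differed in the CG content of their promoters, shown here for Ckm and Ckb, on which most results below turn, and for Cox8b and Cox8a, the pair with the smallest share of heart-type tags. RefSeq promoter windows (GRCm38.p6) of 300 bases, from 250 before to 50 after a gene's start, were matched for 8 of the 9 genes. Capitals mark CG dinucleotides, and each is read 5′ to 3′ on the gene's strand. The windows are chr7:19410844-19411143 (plus) for Ckm, chr12:111672289-111672588 (minus) for Ckb, chr7:140900397-140900696 (minus) for Cox8b and chr19:7217567-7217866 (minus) for Cox8a. The Ckm window is around the RefSeq start, which lies inside the longer span that GENCODE gives the gene.
Ckm: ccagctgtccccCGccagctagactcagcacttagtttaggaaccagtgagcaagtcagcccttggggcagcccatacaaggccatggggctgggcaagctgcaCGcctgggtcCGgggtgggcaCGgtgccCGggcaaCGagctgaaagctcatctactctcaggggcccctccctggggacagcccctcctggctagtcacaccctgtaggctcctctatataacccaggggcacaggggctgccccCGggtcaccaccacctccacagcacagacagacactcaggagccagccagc
Ckb: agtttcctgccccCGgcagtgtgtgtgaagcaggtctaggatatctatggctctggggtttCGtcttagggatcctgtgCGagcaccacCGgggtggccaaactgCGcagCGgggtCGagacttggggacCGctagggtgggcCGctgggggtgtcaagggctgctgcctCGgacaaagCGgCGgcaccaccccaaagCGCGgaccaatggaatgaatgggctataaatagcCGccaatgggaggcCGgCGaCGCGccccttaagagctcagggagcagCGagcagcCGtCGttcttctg
Cox8b: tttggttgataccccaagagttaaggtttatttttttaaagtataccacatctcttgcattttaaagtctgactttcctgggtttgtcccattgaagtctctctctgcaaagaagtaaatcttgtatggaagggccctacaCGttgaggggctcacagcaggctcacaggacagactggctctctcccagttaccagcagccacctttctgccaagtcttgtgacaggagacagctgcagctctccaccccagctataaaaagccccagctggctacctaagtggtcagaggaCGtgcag
Cox8a: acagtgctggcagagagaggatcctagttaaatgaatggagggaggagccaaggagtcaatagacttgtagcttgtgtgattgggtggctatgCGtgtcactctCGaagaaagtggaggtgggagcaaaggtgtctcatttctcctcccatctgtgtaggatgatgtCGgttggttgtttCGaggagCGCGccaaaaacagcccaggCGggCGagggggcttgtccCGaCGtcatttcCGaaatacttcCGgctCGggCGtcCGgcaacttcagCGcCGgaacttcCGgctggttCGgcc
The Ckm window held 7 CG dinucleotides and that of Ckb 22, the Cox8b window 2 and that of Cox8a 19.

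The same division ran through all matched genes. CG dinucleotides numbered 2 to 7 in the windows of the heart-type genes (Cox8b 2, Ckmt2 4, Ckm 7 and Cox7a1 7) and 19 to 32 in those of the ubiquitous genes (Cox8a 19, Cox7a2 20, Ckb 22 and Cox6a1 32). Over all 32851 promoter windows the median was 7, and 51.4% held at most 7 while 28.1% held at least 19. Several short motifs were searched on both strands, without regard to overlap. The E-box CANNTG, the site of basic helix-loop-helix factors, was in the windows of Ckm, Ckmt2, Cox7a1, Cox8b, Cox7a2 and Cox8a and in 72.3% of all windows. The site of nuclear respiratory factor 1, which reads GCGC, AT and GCGC without a gap, was in that of Cox6a1 and in 0.971% of all. Ckb alone among the 8 held the MEF2 site, CTA and TAG with any 4 bases between (3.69% of all windows), and the MCAT element CATTCC (14.7%), and Ckb and Cox8b held the TATA box TATAAA (13.6%). The site of oestrogen-related receptors, AAGGTCA, was in none of the 8 and in 4.72% of all windows. A match is a run of letters and was not tested as a binding site.

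After filtering, 4640 mutant cells with a median of 4046 UMIs (unique molecular identifiers, a count of captured RNA molecules) and 4100 control cells with a median of 5897 UMIs remained, of 48527471 and 49323576 deposited UMIs, and 8 cell barcodes were in both libraries. Cells were assigned by marker gates. The ventricular gate held 1133 mutant and 1412 control cardiomyocytes (median 11770 and 10178 UMIs) and the atrial gate 328 and 440 (median 11900 and 11906). A panel of 12 cardiomyocyte markers summed to 40944 CPM (UMIs of a gene per 1000000 UMIs of the class) in mutant and 40950 CPM in control ventricular cells, with 12 of 12 markers present, and to 55943 and 58834 CPM in atrial cells. The non-muscle class pooled epicardial, mesenchymal, endothelial and macrophage gates, with 1902 mutant and 1168 control cells. Of a panel of 5 skeletal muscle markers 4 had no UMI in ventricular or atrial cells, and the fifth, Myog, had a few. The floxed gene itself was not used to check the labels. The tags come from the 3′ end of transcripts and need not show a deletion, and the place of the floxed part was not examined. Prmt1 was at 358 CPM in mutant and 464 CPM in control epicardial cells, a ratio of 0.772 (0.669 to 0.891). In that class 9.02% of all genes were past 1.5-fold in either direction. The ratio was above 1 in mesenchymal (1.08), endothelial (1.09), macrophage (1.82) and atrial cells (1.16). In ventricular cells Prmt1 was at 789 and 664 CPM, a ratio of 1.19 (1.16 to 1.22).

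All 4 measured heart-type genes were far higher in cardiomyocytes than in non-muscle cells of the same library, while the ubiquitous genes were present everywhere and about 2- to 4-fold higher in cardiomyocytes. Cox6a2, the heart-type form of the small subunit VIa, was at 758 CPM (745 to 770) in mutant and 957 CPM (944 to 970) in control ventricular cells, and at 2319 CPM (2280 to 2359) and 2436 CPM (2401 to 2472) in atrial cells. Mutant non-muscle cells held 2.68 CPM and those of the control 3.70 CPM, from 18 and 15 UMIs. In each library the atrial level was thus the highest, the ventricular level next and the non-muscle level last, with no overlap of their intervals.

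Ckm, the muscle creatine kinase, was at 238 CPM (231 to 245) in mutant and 492 CPM (483 to 502) in control ventricular cells. In atrial cells it was at 75.9 CPM (69.0 to 83.3) and 99.4 CPM (92.4 to 107), and in non-muscle cells at 0.596 and 1.73 CPM, from 4 and 7 UMIs. Its order was therefore ventricular, atrial, non-muscle in both libraries, again with intervals apart.

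Cox7a1, the heart-type subunit VIIa, differed less between chambers. It stood at 333 CPM in mutant and 377 CPM in control ventricular cells and at 494 and 474 CPM in atrial cells, against 7.15 and 7.39 CPM in non-muscle cells. Cox8b, the heart-type subunit VIII, whose human counterpart is a pseudogene, was at 40.3 CPM (37.5 to 43.3) in mutant and 61.1 CPM (57.8 to 64.6) in control ventricular cells and at 29.9 and 41.4 CPM in atrial cells. It had 1 UMI in mutant and 2 UMIs in control non-muscle cells.

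Ckmt2, the mitochondrial creatine kinase of striated muscle, was barely detected at this stage. It had 44 UMIs in mutant and 108 UMIs in control ventricular cells (2.36 and 5.25 CPM) and 7 and 27 UMIs in atrial cells (1.19 and 3.60 CPM). Non-muscle cells had none in either library, which allows up to 0.447 CPM in mutant and 0.739 CPM in control cells when a count of 0 is read as up to 3 UMIs. At under 10 CPM in every class it was left out of the counts of measured genes below.

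Cox8a had the most tags of the 9 genes in ventricular, atrial and non-muscle cells. It reached 4564 CPM in mutant and 4690 CPM in control ventricular cells, 3497 and 3343 CPM in atrial cells and 2063 and 2166 CPM in non-muscle cells. Cox7a2 followed with 2356 and 2523, 1711 and 1594, and 962 and 1030 CPM in the same classes. Cox6a1 was at 839 and 869 CPM in ventricular, 664 and 542 CPM in atrial and 345 and 360 CPM in non-muscle cells. Between the 4 non-muscle gates the 3 genes varied little. Cox6a1 ranged there between 324 and 395 CPM over both libraries, Cox7a2 between 771 and 1132 CPM and Cox8a between 1853 and 2656 CPM. Red cells, whose UMIs are mostly globin, held 227 and 188 CPM of Cox6a1. Ckb, the brain-type creatine kinase, was low throughout, at 136 and 150 CPM in ventricular, 163 and 164 CPM in atrial and 37.1 and 49.5 CPM in non-muscle cells, in each case mutant before control.

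**Figure D1:**
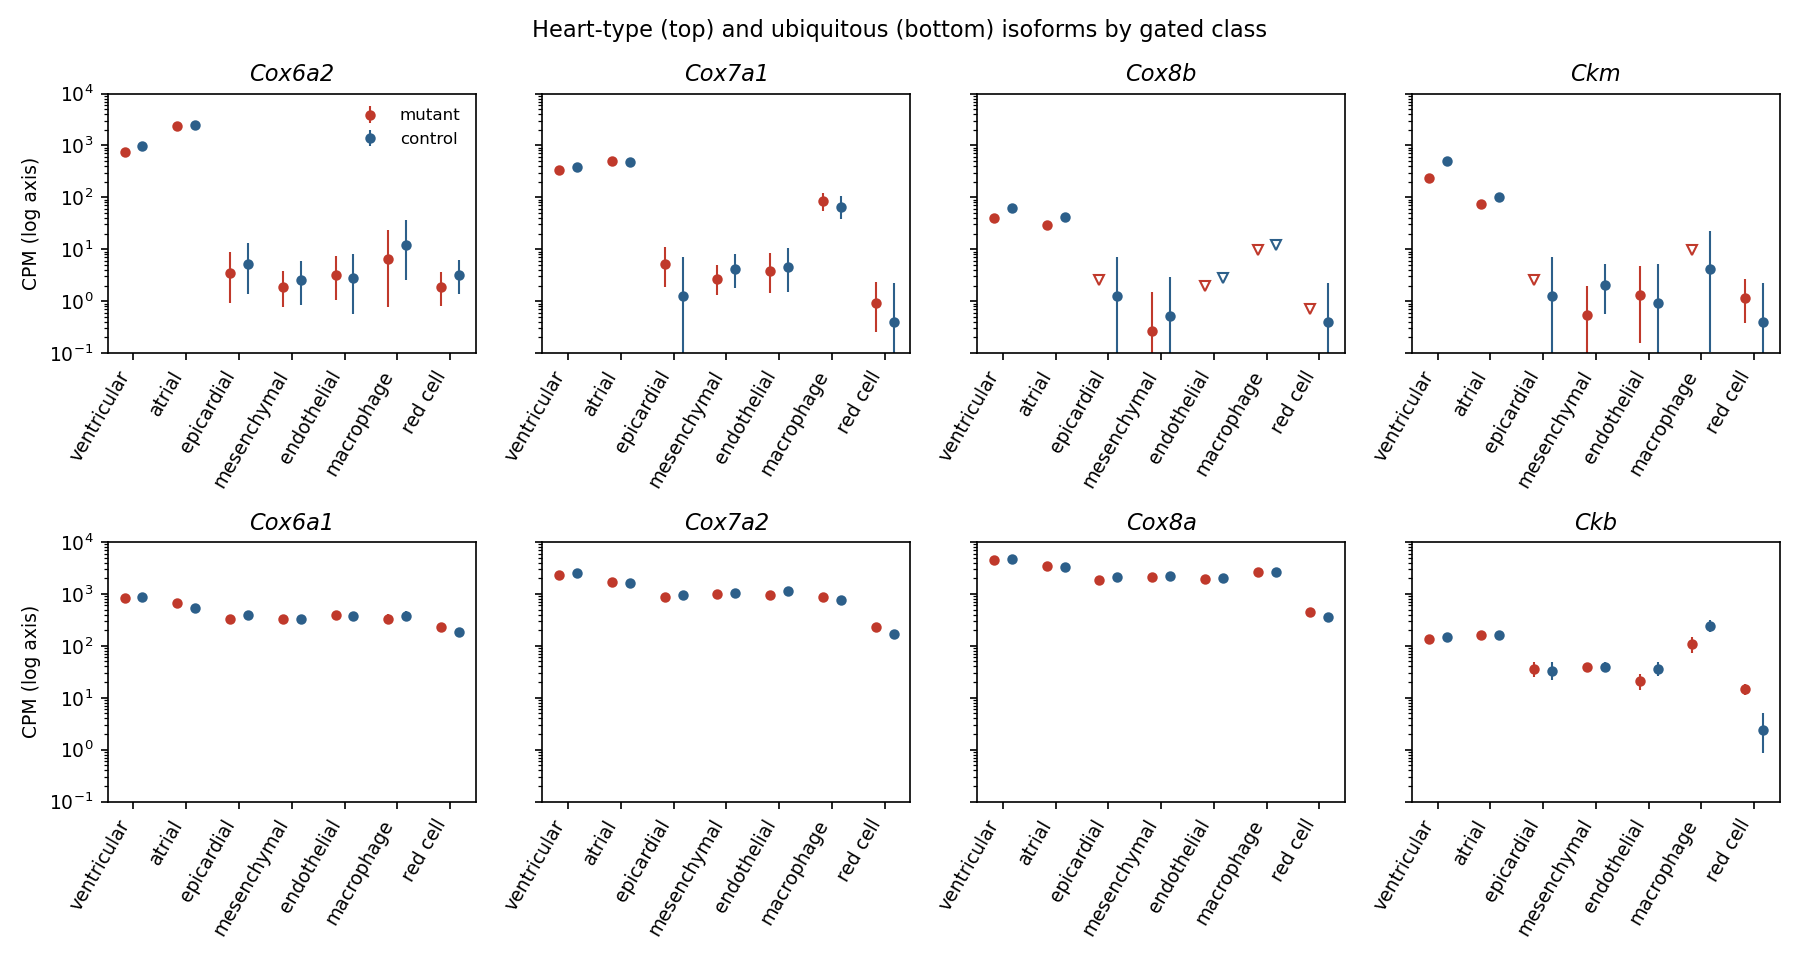
Level of 8 of the genes in CPM (log axis) by gated class, with the mutant library in red on the left of the control library in blue within each class. Points are class sums, bars are exact Poisson 95% intervals, and open triangles give the level of 3 UMIs where none was counted. The heart-type genes in the top row are high in ventricular and atrial cells and near the bottom elsewhere, apart from Cox7a1 in macrophages (84.4 CPM in mutant and 65.6 CPM in control cells), while the ubiquitous genes in the bottom row are present in every class.

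On the log2 scale with 10 CPM added to each level, cardiomyocytes exceeded non-muscle cells by 6.49 in the mutant and 6.64 in the control for Cox6a2, by 4.47 and 4.57 for Cox7a1, by 4.30 and 5.08 for Ckm and by 2.24 and 2.65 for Cox8b. For the ubiquitous genes the difference was 1.69 and 1.46 for Ckb, 1.18 and 1.10 for Cox6a1, 1.19 and 1.13 for Cox7a2 and 1.06 and 0.996 for Cox8a. Of the 8 measured genes, 8 in the mutant and 7 in the control were past 2-fold higher, where 6.50% and 6.53% of all genes were, and Cox8a in the control lay just under. This direction was part of the choice of the genes, so nothing is read from the count. The median over all genes was -0.40 and -0.42. Median-of-ratios size factors would raise the values by at most 0.64 and 0.65, and by less at low levels. With them the higher and lower calls over all genes were 786 and 503 in the mutant and 809 and 525 in the control, against 408 and 952, and 411 and 1023, on the CPM scale.

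Free RNA in the droplets was measured in the control library and set beside the low values. Control barcodes with under 100 UMIs, which hold RNA set free by broken cells, carried Cox6a2 at 536 CPM, Cox7a1 at 188 CPM, Ckm at 169 CPM, Cox8b at 25 CPM, Ckb at 422 CPM and the cardiomyocyte panel at 25819 CPM. Per 1000 UMIs of that panel, Cox6a2 had 20.8 UMIs in free RNA and 4.92 in mutant and 6.74 in control non-muscle cells, and Ckm had 6.53 in free RNA and 1.09 and 3.14 in non-muscle cells. Against the panel, the traces of Cox6a2 in the pooled non-muscle cells were thus lower than in free RNA of the control, with intervals apart. Macrophages alone had 33.3 (3.95 to 126) in the mutant and 46.2 (9.28 to 141) in the control, from 2 and 3 UMIs. Control endothelial cells had 6.90 (1.42 to 20.3). The intervals of these gates overlapped that of free RNA (19.4 to 22.2). The traces of Ckm in the pooled non-muscle cells were no higher than in free RNA. The part of free RNA in these traces was not tested. A Ckm UMI was seen in 0.210% of mutant and 0.599% of control non-muscle cells, which sets the background for the shares of cells below. Ckb stood apart, since its level in free RNA, from 658 UMIs, was above that in control ventricular (150 CPM), atrial (164 CPM), non-muscle (49.5 CPM) and macrophage cells (242 CPM). Mutant red cells held 14.5 CPM of Ckb and control red cells 2.38 CPM. The part of free RNA in the Ckb tags of cells, and so in the Ckm share of its pair and in the cells with Ckb alone, was not tested.

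Cox7a1 was the exception. Macrophages, known by a panel that summed to 16489 CPM in mutant and 22609 CPM in control, held 84.4 CPM (55.2 to 124) and 65.6 CPM (37.5 to 106) of it, from 26 UMIs in 36.8% of 68 mutant cells and 16 UMIs in 21.7% of 69 control cells. The epicardial, mesenchymal and endothelial gates lay between 1.27 and 5.16 CPM. Against the cardiomyocyte panel, macrophages had 433 Cox7a1 UMIs per 1000 in the mutant and 246 per 1000 in the control, where free RNA had 7.27 and ventricular cells 8.12 and 9.21. Macrophages also carried more Ckb than the other non-muscle gates, with 107 CPM (73.8 to 150) in mutant and 242 CPM (184 to 312) in control cells, where the other 3 gates lay between 20.7 and 39.5 CPM. The Ckb ratio of mutant to control macrophages was 0.443 (0.280 to 0.690), in a class of few cells, where 32.0% of all genes were past 1.5-fold.

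Among the UMIs of a pair, the share taken by the heart-type isoform ordered the pairs the same way in both libraries. The genes are not divided by transcript length, since 3′ tags do not scale with it, so this is a share of tags. In ventricular cells Ckm made up 63.7% of Ckm and Ckb tags in the mutant and 76.6% in the control, Cox6a2 47.5% and 52.4% of its pair, Cox7a1 12.4% and 13.0%, and Cox8b 0.876% and 1.29%. In atrial cells Cox6a2 took the first place with 77.8% and 81.8%, Ckm came next with 31.7% and 37.7%, Cox7a1 had 22.4% and 22.9%, and Cox8b 0.847% and 1.22%. In non-muscle cells the shares were 0.770% and 1.02% for Cox6a2, 0.737% and 0.713% for Cox7a1, 0.00722% and 0.0228% for Cox8b and 1.58% and 3.37% for Ckm. The embryonic ventricle at this day thus carried mixed Cox6a and creatine kinase tags and almost wholly ubiquitous Cox8 tags.

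**Figure D2:**
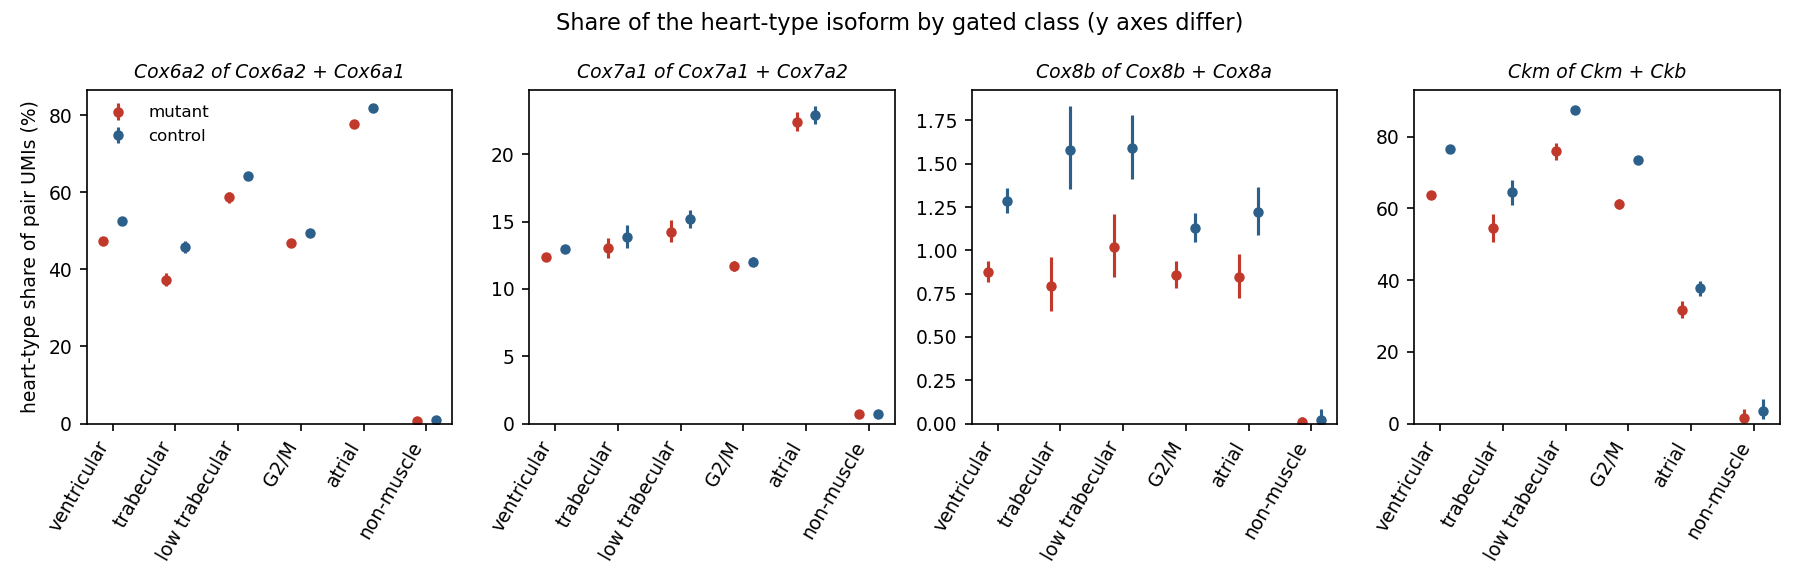
Heart-type share of the UMIs of each isoform pair, in percent, by gated class, with mutant in red left of control in blue. Bars are exact 95% binomial intervals and the y axes differ between panels. Of the classes plotted, the Cox6a2 share is highest in atrial cells (77.8% and 81.8%) and the Ckm share is highest in low-trabecular ventricular cells (75.9% and 87.4%).

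Ckm and Cox6a2 differed between the chambers in opposite directions. Ckm was higher in ventricular than in atrial cells, by 1.53 in the mutant and 2.20 in the control on the log2 scale (3.13-fold and 4.95-fold as plain ratios), and stood 17th and 11th highest of 5369 and 5423 measured genes. Cox6a2 was lower in ventricular than in atrial cells, by -1.60 and -1.34 (0.327-fold and 0.393-fold), and stood 36th and 86th lowest. Cox7a1 was also on the atrial side at -0.56 and -0.32, Cox8b on the ventricular side at 0.34 and 0.47, and none of these 4 values was past 1.5-fold.

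Among the ubiquitous genes, Cox6a1 was at 0.33 in the mutant and 0.67 in the control, Cox7a2 at 0.46 and 0.66, Cox8a at 0.38 and 0.49, and Ckb at -0.25 and -0.13. Together 1 gene was higher and 1 lower of 8 measured in the mutant, and 3 were higher and 1 lower in the control, beside 8.08% and 10.6% of all genes past 1.5-fold in either direction. The medians over all genes were -0.02 and -0.13. Size factors would raise the values by at most 0.06 in the mutant and 0.23 in the control. They gave 360 genes higher and 266 lower in the control, against 167 higher and 407 lower by CPM. Under them neither Ckm nor Cox6a2 changed sign, while Ckb turned positive in the control. The summed Cox6a pair came to 1596 and 1826 CPM in ventricular and 2983 and 2978 CPM in atrial cells, so the atria held more Cox6a tags in all, and of these a larger part from Cox6a2. The difference between the libraries in the ventricular over atrial log2 ratio, mutant minus control, was -0.67 for Ckm, -0.34 for Cox6a1, -0.26 for Cox6a2, -0.24 for Cox7a1 and -0.20 for Cox7a2, and it was not tested.

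Markers of the other chamber moved with this comparison. The atrial panel summed to 189 CPM in mutant and 109 CPM in control ventricular cells, against 2170 and 2343 CPM in atrial cells, and the ventricular panel to 1344 and 708 CPM in atrial cells, against 17036 and 17606 CPM in ventricular cells. Between the gates lay 36 mutant and 47 control cardiomyocytes. The part of these cells in the ratios was not tested.

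Within the ventricle, Ckm and Cox6a2 were low in trabecular cells, which line the chamber and express natriuretic peptide genes. Ventricular cells of intermediate trabecular signal and outside G2/M were in no subgroup. The subgroups were 553 mutant and 667 control cells with G2/M markers, 220 and 197 other cells rich in trabecular markers, and 249 and 426 other cells low in them. The last group was first meant as compact wall, but a compact wall panel did not mark it, with 100 CPM in mutant and 65.0 CPM in control trabecular cells, against 89.6 and 65.9 CPM in this group, and it is called low-trabecular here. The trabecular panel itself summed to 4825 and 3426 CPM in trabecular and to 201 and 174 CPM in low-trabecular cells. In G2/M cells, which were gated first whatever their trabecular signal, it summed to 1798 and 1402 CPM. The median depth was 17306 UMIs in mutant and 16087 in control G2/M cells. It was 9602 and 8905 in trabecular and 8519 and 7226 in low-trabecular cells. The G2/M gate counts markers with a UMI, without correction for depth, and thinning came after gating. The part of depth, and of trabecular cells within the G2/M group, in the comparisons with G2/M cells was not tested.

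Ckm was at 139 CPM in mutant and 236 CPM in control trabecular cells, 363 and 851 CPM in low-trabecular cells, and 230 and 448 CPM in dividing cells. Cox6a2 was at 531 and 765 CPM in trabecular, 1129 and 1451 CPM in low-trabecular and 733 and 863 CPM in dividing cells. In each library both genes were thus highest in low-trabecular and lowest in trabecular cells.

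Trabecular over low-trabecular, the log2 difference was -1.32 in the mutant and -1.81 in the control for Ckm, the 12th lowest of 5104 and the 2nd lowest of 4802 genes, and -1.07 and -0.91 for Cox6a2. These were the 2 of 8 measured genes past 1.5-fold lower, beside 1.39% and 1.65% of all genes, and the others lay within 0.25 of 0. Dividing over low-trabecular, Ckm was at -0.63 and -0.91, Cox6a2 at -0.62 and -0.74, Cox7a1 at -0.43 and -0.54, Cox8b at -0.33 and -0.57 and Ckb at 0.32 and 0.38. Again Ckm and Cox6a2 were the ones past 1.5-fold lower, beside 0.986% and 0.855% of all genes. With each cell thinned to 1000 UMIs, Ckm and Cox6a2 kept the order of trabecular below low-trabecular cells, at -1.69 and -2.42 for Ckm and -0.89 and -0.88 for Cox6a2. Dividing over low-trabecular, control Ckm was then at -0.54, no longer past 1.5-fold, and Cox8b at -0.70 and -0.75 and mutant Ckb at 0.68 were past it. The Cox6a2 share of its pair followed, with 37.3% and 45.8% in trabecular, 58.7% and 64.3% in low-trabecular and 46.7% and 49.5% in dividing cells. Across chambers the 2 genes parted: atrial cells, which held the trabecular panel at 9421 and 7638 CPM, had the highest Cox6a2 and a low Ckm level.

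The pairs also differed in how often both isoforms were seen within single ventricular cells. A UMI of both Cox6a1 and Cox6a2 was found in 93.8% of mutant and 93.2% of control ventricular cells. Among cells with at least 5 UMIs of the pair, the Cox6a2 share had a median of 40% with quartiles of 23.5% and 55.3% in the mutant, and a median of 47.6% with quartiles of 31.6% and 62.5% in the control. Under 10% of these tags were Cox6a2 in 8.14% and 4.57% of cells, and at least 90% in 1.2% and 2.59%.

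The creatine kinases gave other values, from fewer tags. Their pair summed to 373 CPM in mutant and 642 CPM in control ventricular cells, against 1596 and 1826 CPM for the Cox6a pair. Both isoforms are seen less often in a cell when a pair has fewer tags. The part of this in the difference between the pairs was not tested. UMIs of both Ckm and Ckb were in 34.1% and 34.8% of ventricular cells, Ckm alone in 166 mutant and 239 control cells, Ckb alone in 325 and 348, and neither in 256 and 333. With at least 5 UMIs of the pair (377 and 567 cells), the Ckm share was at least 90% in 30.5% and 43.7% of cells and under 10% in 14.3% and 12.7%, and its median was 73.5% and 85.7%. Low-trabecular cells were mostly at the upper end, with 47.9% of 73 mutant and 68.6% of 153 control cells at 90% or more, and atrial cells at the lower end, with 41.9% of 86 and 42.7% of 117 cells under 10%. These cells are a selection, since most ventricular cells had too few UMIs of the pair.

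**Figure D3:**
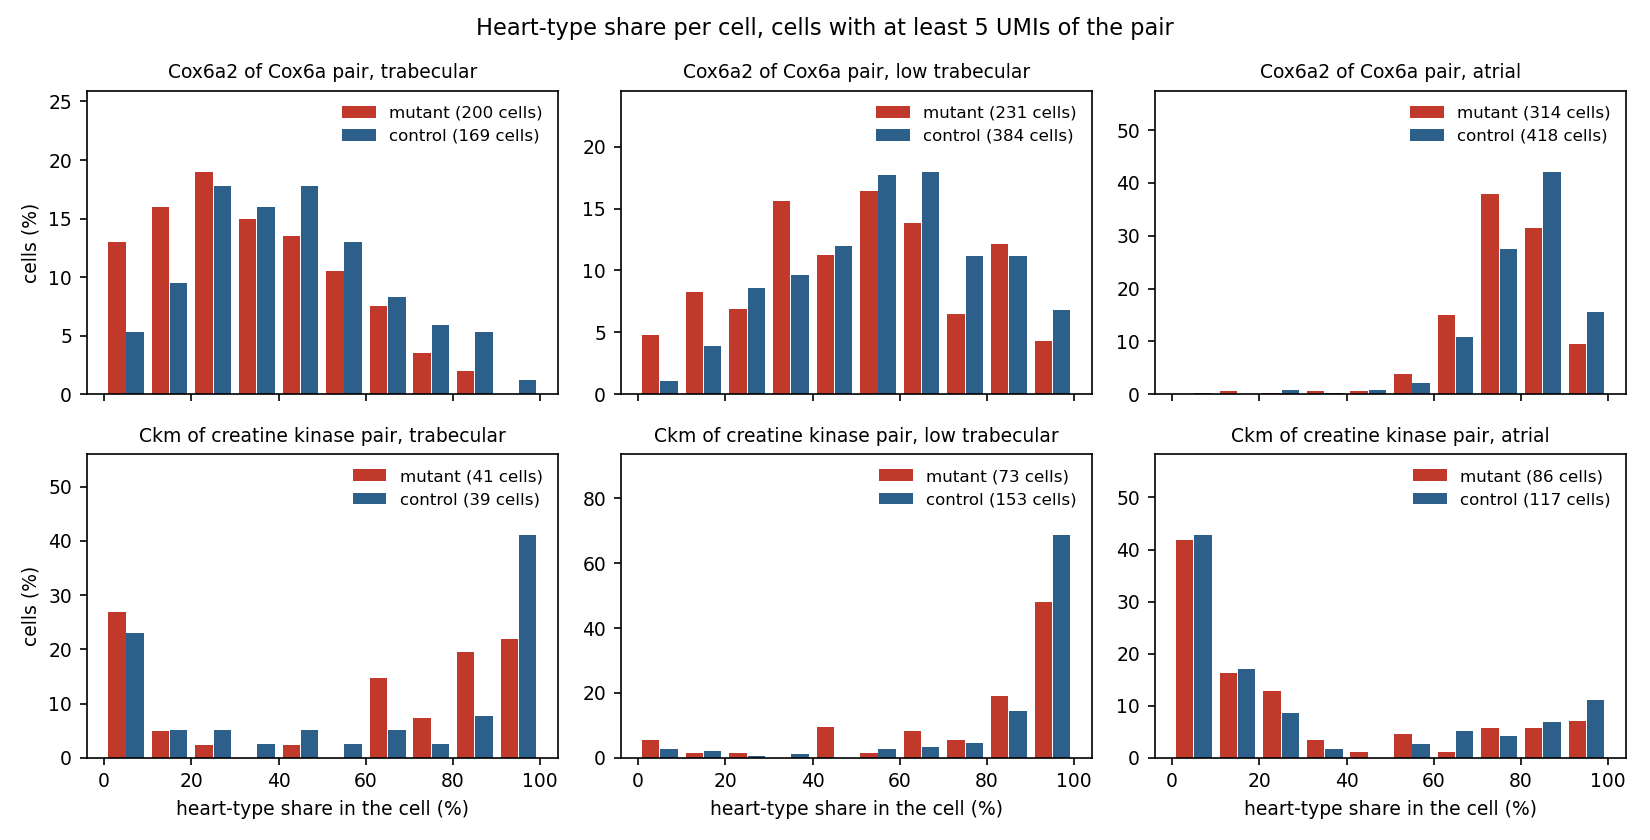
Percent of cells by heart-type share of the pair within a cell, in bins of 10%, for cells with at least 5 UMIs of the pair, with mutant bars in red left of control bars in blue. The Cox6a2 share (top) is spread widely in ventricular cells and lies mostly above 60% in atrial cells. The Ckm share (bottom) is mostly at the upper end in low-trabecular cells, at 90% or more in 47.9% of mutant and 68.6% of control cells. It is mostly at the lower end in atrial cells, and at both ends in trabecular cells (41 mutant and 39 control cells).

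With every cell thinned to 1000 UMIs, Ckm had the highest variance relative to its mean of the 9 genes over ventricular cells. The variance of its counts was 2.41 times their mean in the mutant and 3.02 times in the control, where counts that vary by sampling alone have a ratio near 1. Cox6a2 had 1.56 and 1.88, and the ubiquitous genes lay between 0.975 and 1.26. The share of ventricular cells with a Ckm UMI was 48.7% in the mutant and 51.8% in the control as counted, and 14.6% and 22.3% after thinning. For Cox6a2 it was 94.2% and 95% as counted and 42.7% and 51.6% after thinning, while 0.946% and 1.28% of non-muscle cells had a Cox6a2 UMI as counted, at median depths of 1998 to 4036 UMIs in the non-muscle gates.

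Between the genotypes, ventricular Ckm stood out. Its mutant level of 238 CPM was 0.483 (0.466 to 0.50) of the control level of 492 CPM, a log2 difference of -1.02, the 2nd lowest of 5167 genes. Cox8b was at 0.660 (0.602 to 0.723) of the control and Cox6a2 at 0.792 (0.775 to 0.809), log2 differences of -0.50 and -0.33, while Cox7a1 was at -0.18. The ubiquitous genes lay nearer to 0, with Ckb at -0.14, Cox7a2 at -0.10, Cox6a1 at -0.05 and Cox8a at -0.04. Ckm was thus the 1 of 4 measured heart-type genes past 1.5-fold, and none of the 4 ubiquitous genes was, beside 0.600% of all genes in either direction and 0.232% lower, with a median over all genes of 0.04. Without the added 10 CPM, Cox8b was also past 1.5-fold, just beyond the line. By size factors the split of all genes was 17 higher and 21 lower, against 19 higher and 12 lower by CPM.

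Within the ventricular subgroups Ckm was also lower in the mutant by summed UMIs, and with each cell thinned to 1000 UMIs the trabecular difference was no longer past 1.5-fold. Ckm was at 0.592 (0.515 to 0.679) of the control in trabecular cells, 0.426 (0.395 to 0.459) in low-trabecular cells and 0.514 (0.492 to 0.538) in dividing cells. Cox8b was at 0.487, 0.617 and 0.733 in the same order, and Cox6a2 at 0.694, 0.778 and 0.849. In trabecular and low-trabecular cells Ckm and Cox8b were both past 1.5-fold lower, beside 0.802% and 0.658% of all genes, and in dividing cells Ckm alone was, beside 0.284%. Cox6a1, Cox7a2, Cox8a and Ckb lay between -0.15 and -0.02 in all 3 subgroups. After thinning, an alternative chosen after seeing the data, Ckm was at 0.895 (0.493 to 1.63) of the control in trabecular cells, from 25 UMIs in each library, at 0.539 (0.424 to 0.679) in low-trabecular cells and at 0.480 (0.389 to 0.590) in dividing cells. Cox6a2 was then at 0.722, 0.728 and 0.798 in the same order. Cox8b was at 0.806 (0.290 to 2.21) in trabecular and 0.726 (0.359 to 1.39) in low-trabecular cells, and was past 1.5-fold in neither.

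In atrial cells none of the 8 measured genes was past 1.5-fold, beside 1.04% of all genes, of which 26 were higher and 32 lower by CPM, and 37 higher and 28 lower by size factors. Ckm was at 0.764 (0.678 to 0.860) and Cox8b at 0.722 (0.596 to 0.872) of the control, Cox6a2 at 0.952 (0.931 to 0.973) and Cox7a1 at 1.04 (0.993 to 1.10), while Cox6a1 was at 1.22 (1.17 to 1.28). In non-muscle cells none of the 4 measured genes was past 1.5-fold, beside 1.47% of all genes. Whether the ventricular and atrial ratios differ beyond the variation between embryos cannot be tested with 1 library per genotype.

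Several values moved with the ventricular difference. The trabecular panel summed to 1937 CPM in mutant and 1354 CPM in control ventricular cells, and the trabecular gate held 220 of 1133 and 197 of 1412 cells. Free RNA could be measured in the control only, as the deposited mutant matrix had been filtered to barcodes with at least 500 UMIs. The cardiomyocyte panel was alike (40944 and 40950 CPM), and per 1000 of its UMIs Ckm had 5.81 in the mutant and 12 in the control. Of the other panels in ventricular cells, the vessel wall one summed to 2386 CPM in mutant and 1581 CPM in control cells. Few of its markers carried that sum. In trabecular cells 2270 and 1419 CPM came from 2 of its 6 markers, without a UMI of Eln, Fbln5, Rgs5 or Pdgfrb. The erythroid panel summed to 309 and 171 CPM, the atrial one to 189 and 109 CPM and the compact one to 89.2 and 70.2 CPM. The G2/M panel was at 1359 and 1632 CPM, the mesenchymal one at 9.80 and 28.3 CPM, the macrophage one at 8.46 and 21.4 CPM and the epicardial one at 98.3 and 95.5 CPM. The part of these panels in the difference was not tested. The ventricular cells had a median of 11770 UMIs in the mutant and 10178 in the control. Library and genotype cannot be told apart.

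**Figure D4:**
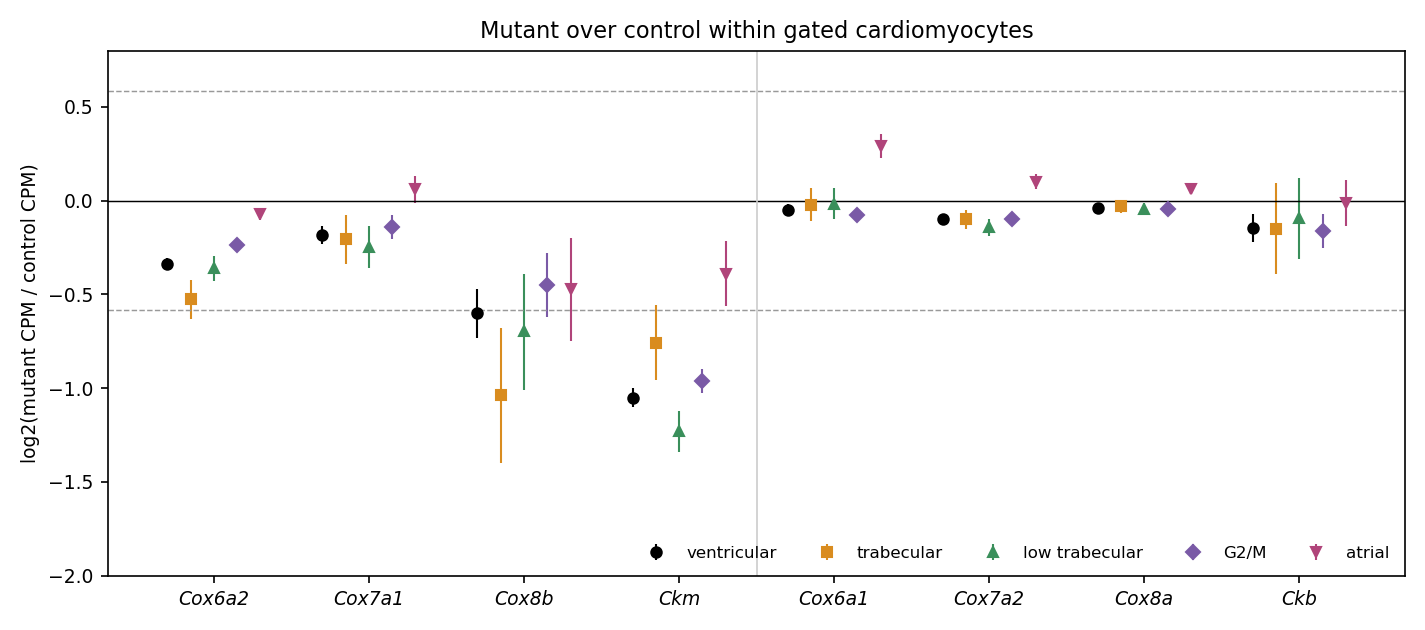
Mutant over control ratio of each gene on a log2 axis, from CPM without an added constant, within ventricular cells, their 3 subgroups and atrial cells. Bars are exact 95% counting intervals, and dashed lines mark 1.5-fold. By summed UMIs Ckm lies below the lower dashed line in ventricular cells and each subgroup (0.483 of the control in all ventricular cells, and 0.895 in trabecular cells once each cell is thinned to 1000 UMIs), and the ubiquitous genes on the right lie between the lines.

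The genes whose levels were most like those of each heart-type gene, over 16 points from the classes of both libraries and among 3200 candidates, were taken by a fixed rule. Ckm was most like Myoz2, a Z-disc protein (Pearson r = 0.98), followed by Doc2g and Hopx (0.96 each), the last a homeodomain-only protein of the developing myocardium. Cox6a2 was most like Lmod2, a thin filament protein, Hspb3, a small heat shock protein of muscle, and Cap2, an actin regulator (0.994 to 0.995). Cox8b was most like Mybpc3, myosin-binding protein C, then Cav3, the muscle caveolin, and Myoz2 (0.98 to 0.99), and Ckmt2 like Myoz2, Cav3 and Mybpc3 (0.91 to 0.92). Cox7a1 was most like Sod2, mitochondrial superoxide dismutase (0.98), Clybl, a mitochondrial lyase (0.97), and Synpo2l, a Z-disc protein (0.96). The points share libraries and the contrast of muscle with other cells, so these are descriptions without a p-value.

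Genes around these pairs were taken from fixed lists. Of 12 other muscle-type energy genes, 8 of 8 measured in the mutant and 9 of 10 in the control were past 2-fold higher in cardiomyocytes than in non-muscle cells, with median log2 differences of 2.78 and 2.33 beside -0.40 and -0.42 over all genes and 6.50% and 6.53% of all genes past 2-fold higher. A muscle-type gene counts as measured mostly through its level in cardiomyocytes, so nothing is read from this count. Pgam2, the muscle phosphoglycerate mutase, was at 821 CPM in mutant and 977 CPM in control cardiomyocytes and at 23.5 and 19.96 CPM in non-muscle cells. Eno3, muscle enolase, was at 413 and 505 CPM against 10.6 and 11.1 CPM. Of their ubiquitous counterparts 5 of 8 and 4 of 8 were past 2-fold.

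Other parts of the oxidase were taken from further lists, beside the same 6.50% and 6.53% of all genes past 2-fold higher. Of 9 further subunits without a muscle form on the list, 4 were past 2-fold higher in cardiomyocytes in each library, with medians of 0.92 and 0.99. None of the 3 mitochondrially encoded subunits was (medians 0.21 and 0.45). mt-Co1, the catalytic subunit, was at 5168 CPM in mutant and 5391 CPM in control cardiomyocytes, against 4660 and 4694 CPM in non-muscle cells, mt-Co2 at 4738 and 5212 CPM against 3354 and 3132 CPM, and mt-Co3 at 7179 and 7854 CPM against 6197 and 5727 CPM. None of 19 measured of 22 assembly and copper delivery genes was past 2-fold (medians 0.09 and 0.28). Of 13 regulators of mitochondrial and muscle genes, 7 were measured, and the coactivator Ppargc1a in both libraries and the nuclear receptor Esrra in the control were past 2-fold higher. Ppargc1a was at 22.9 CPM in mutant and 23.3 CPM in control cardiomyocytes, against 2.98 and 4.19 CPM in non-muscle cells. It counts as measured only through its level in cardiomyocytes, so nothing is read from its call.

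Between chambers, 1 of 10 measured muscle-type energy genes was past 1.5-fold higher in ventricular cells and 1 lower in the mutant. In the control 1 was higher and 2 were lower. Among 8 measured ubiquitous counterparts, 2 in the mutant and 5 in the control were higher and 0 lower. Over all genes 8.08% and 10.6% were past 1.5-fold in either direction. Myoglobin (Mb), the oxygen store of muscle, and Pgam2 are examples from the muscle-type list. Mb went with Ckm. It was at 102 CPM in mutant and 132 CPM in control ventricular cells, against 18.6 and 11.6 CPM in atrial cells. Pgam2 went with Cox6a2, at 677 and 732 CPM in ventricular cells, against 1279 and 1650 CPM in atrial cells. Gamt, which makes creatine, was at 117 and 105 CPM in ventricular and 169 and 170 CPM in atrial cells. The creatine transporter Slc6a8 was near 7 CPM in mutant cardiomyocytes of both chambers, with 7.12 CPM in ventricular and 6.82 CPM in atrial cells, and 6.46 and 6.14 CPM in the control. Gatm, the first enzyme of creatine synthesis, was at 1.63 CPM in mutant and 0.713 CPM in control cardiomyocytes, against 10.4 and 15.3 CPM in non-muscle cells. The ubiquitous mitochondrial kinase Ckmt1 had 4 UMIs in mutant and 3 UMIs in control cardiomyocytes.

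Between the genotypes none of the measured genes of the 8 lists was past 1.5-fold in ventricular cells. Only 0.600% of all genes were, so nothing is read from this count. The list medians lay between -0.13 and 0.13, beside 0.04 over all genes. The 10 measured muscle-type energy genes had a median of -0.11, with Mb at -0.35, Fabp3, a fatty acid carrier, at -0.23 and Eno3 at -0.20. The 3 mitochondrially encoded subunits had a median of -0.13 and the 9 ubiquitous subunits one of -0.06.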

How the data were processed

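UMI counts per gene and barcode were deposited by the authors as 1 matrix per library, and the file headers name Cell Ranger 3.0.2. Seurat is also named in the submitters' processing notes. Neither labels nor headers state the genome build, the counting strand or any sorting. The labels name a v2 kit. The control matrix listed 6794880 barcodes, 542175 with a UMI, and the mutant matrix 7181 barcodes with at least 500 UMIs each. Cells needed 1000 UMIs, 500 genes and at most 20% mitochondrial UMIs. Doublets were scored with Scrublet (scanpy 1.11.5, expected rate 6%, 30 neighbours). Its automatic threshold marked 2 mutant and 0 control cells, too few to have worked, so the upper 6% of scores per library was left out (278 and 246 cells).

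Cells were gated by marker UMIs per 10000. Cardiomyocytes had at least 100 UMIs of 12 markers, ventricular ones at least 25 of Myl2, Irx4, Hey2 and Mpped2, and atrial ones under 10 of these and at least 5 of an atrial panel. Non-muscle cells had at most 40 cardiomyocyte UMIs and at least 3 markers of their panel. Globin had to be under 500. Dividing ventricular cells had at least 4 of 10 G2/M markers, trabecular cells at least 10 trabecular UMIs and low-trabecular cells under 5. The gate values were set with the data at hand.

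UMIs were summed per class and library and divided by the class total (CPM). Log2 ratios add 10 CPM to both levels. Genes with a mean of at least 10 CPM over both sums count as measured, and a gene is past the fold at 1.5-fold, or 2-fold against non-muscle cells. Levels have exact Poisson, shares exact Clopper-Pearson and ratios exact conditional binomial 95% intervals. The ratio computation was tested on simulated counts. Promoters and positions came from RefSeq (GRCm38.p6) and GENCODE M21 (GRCm38), in which 99.6% of the gene IDs were found, and processed copies were sought with blastn 2.17.0. Tools were Python 3.11.15, numpy 2.4.6, scipy 1.17.1 and pandas 2.3.3.

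The genes, lists and gates were chosen with earlier results of these data known. Beside the 9 genes, the text names the 3 genes most like each heart-type gene (Pearson correlation of log2(CPM + 10), at least 50 CPM in 1 class of each library, without gate markers, mitochondrial, ribosomal, haemoglobin or sex-linked genes) and the genes of short lists. Other list genes serve as examples, picked with their values known.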

Additional observations from a re-analysis of the deposited data

Results flagged for a closer look

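Barcodes with at least 1000 UMIs but under 500 genes, 2131 in the mutant and 1744 in the control, entered no comparison, and 3 of the ubiquitous genes were higher in those of the mutant. Cox6a1 was at 235 CPM in mutant and 171 CPM in control barcodes. Cox7a2 was at 285 CPM and 182.6 CPM. Cox8a was at 620.6 CPM and 500.2 CPM. A globin panel took 63.6% of the UMIs of these barcodes in the mutant and 73.6% in the control, and its part in the differences was not tested.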

How the results depend on the processing

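Of 1124 alternative values, 833 moved by less than the counting interval, 291 moved further and 0 changed sign among values past the fold. Ventricular Ckm stayed lower in the mutant under 12 alternatives, at log2 values between -1.21 and -0.72. So did Cox6a2 between -0.52 and -0.23 and Cox8b between -0.88 and -0.30. The subgroups by summed UMIs with the main settings are counted among these alternatives, and the others cover the whole ventricular gate. With the cells of each subgroup thinned as well, Ckm was at -0.15 in trabecular, -0.88 in low-trabecular and -1.03 in dividing cells, and Cox8b at -0.26, -0.40 and -0.35. Ventricular over atrial, Ckm lay between 1.19 and 1.82 in the mutant and 1.86 and 2.42 in the control, and Cox6a2 between -1.74 and -1.53 and between -1.43 and -1.12. Ventricular Ckb, mutant over control, ran from -0.20 to 0.14, with the positive value under thinning. The ventricular Cox6a2 share was 44.5% in the mutant and 50.7% in the control with stricter gates, 48.5% and 53.5% with classes from clusters, 46.1% and 54.6% with each cell thinned to 1000 UMIs, and in the control 53.1% with a minimum of 500 UMIs and 200 genes and 53.2% without removal by doublet score. The ventricular Ckm share was 64.9% in the mutant with stricter gates, 62.2% and 75.3% without removal by doublet score, and 69.2% and 83.1% after thinning. After thinning the Cox7a1 share was 13.7% in the mutant and the Cox8b share 1.07% in the control. Counts of heart-type genes past the fold moved to 2 lower in the ventricular over atrial comparison of the mutant with stricter gates and after thinning, to 2 higher in that of the control with size factors, to 2 lower between genotypes in ventricular cells with 1 CPM added in place of 10, and to 1 lower in non-muscle cells with classes from clusters. The cause of these moves was not tested. No paired analysis was possible because each genotype had 1 library, so no replicate could be left out either. Depth limits Ckmt2, Cox8b outside cardiomyocytes and all macrophage values.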

Other observations

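Cox4i2, an isoform of subunit IV known from the lung and from responses to low oxygen, was lower in trabecular than in low-trabecular ventricular cells. It was at 1.55 CPM in mutant and 6.26 CPM in control trabecular cells, from 4 and 13 UMIs, and at 53.2 CPM and 41.1 CPM in low-trabecular cells, from 133 and 147 UMIs. Over the whole ventricular gate it was at 19.1 CPM in the mutant library and 16.9 CPM in the control library, and in atrial cells at 4.61 and 1.07 CPM. Cox6b2, the testis form of subunit VIb, was higher outside cardiomyocytes, with 5.42 CPM in mutant and 6.56 CPM in control cardiomyocytes, against 21.4 and 22.7 CPM in non-muscle cells. It was past 2-fold lower in cardiomyocytes in the mutant only, with 10 CPM added, beside 15.2% of all genes in the mutant and 16.3% in the control. The median log2 difference over all genes was -0.40 and -0.42. Cox7b2 had 1 UMI in mutant and 54 UMIs in control atrial cells (0.171 and 7.20 CPM). All 3 come from the list of other oxidase isoforms and were singled out with their values known.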
